A study of Mus musculus with 8 samples.

Results

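Genes of cholesterol metabolism were followed in the striatum of mice labelled as wildtype or as carrying 1 copy of Brd2 disrupted by a gene trap. The set holds 32 genes of the 30175 named on the array, of which 19 encode enzymes of cholesterol synthesis, 5 encode the sterol-sensing regulators and 8 act in transport, storage and turnover. The members were chosen by function, but with the differences between these genotypes already known, so the values below that compare the genotypes describe the set and support nothing about it. The 32 genes had 45 probes, of which 39 stood well above background in 4 or more samples. Of these 39 probes, 8 were lost to spots with an outlier flag, and the remaining 31 gave a value in all 8 mice. They read 26 of the 32 genes, 16 of the 19 synthesis enzymes and 10 of the other 13. Hmgcs1, Idi1, Msmo1, Abcg1 and Npc2 were lost to flagged spots, and Soat1 was not well above background in any sample.

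Cholesterol hardly crosses the blood-brain barrier, so the brain makes its own. Astrocytes and oligodendrocytes are its main producers in the adult, myelin is its largest store, and neurons take it up on lipoproteins that carry apolipoprotein E. Synthesis runs from acetyl-CoA through mevalonate and isoprenoid chains to squalene, lanosterol and cholesterol, and its genes share a regulator. When membrane sterol is low, the escort protein SCAP takes the transcription factor SREBP-2 (Srebf2) from the endoplasmic reticulum to the Golgi, where it is cut and freed to enter the nucleus. When sterol is plentiful, INSIG proteins hold SCAP back. The BET protein encoded by Brd2 binds acetylated histones through bromodomains and acts on transcription.

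All 8 animals were adult C57Bl/6j males from matings between heterozygotes, after repeated backcrossing to that strain. The 4 wildtype mice carried no trap, and the 4 heterozygous mice carried 1 trapped copy of Brd2 in every cell, per the labels. Total RNA of each mouse was labelled with 1 dye and hybridised to Agilent two-colour mouse arrays. On an array, both dyes held mice of 1 genotype, so each genotype came from 2 arrays: replicates 1 and 2 on one, replicates 3 and 4 on the other. Replicates 1 and 3 carried Cy3 and replicates 2 and 4 carried Cy5. The 4 arrays lay on 1 slide, and no array held both genotypes. A difference between genotypes is therefore also a difference between arrays, and the number of arrays limits its precision.

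The median spot was 3.75 to 10.5 times as bright as its local background, and between 42.4% (heterozygous replicate 3) and 63.8% of spots were well above background. Across the tested probes, which are not independent replicates, mice on 1 array correlated at 0.986 to 0.989 and mice on different arrays of 1 genotype at 0.933 to 0.958. The correlation between mice of different genotypes was 0.925 to 0.959. The tissue is called striatum in most label fields and left atrium in the free description. All 13 markers of striatal projection neurons were well above background in all 8 samples, as were 2 of 10 markers of atrial heart muscle. Brd2 itself was not lower in the mice labelled heterozygous: its brighter probe (chromosome 17, 34248982 to 34249041, mm9) read 11.46 ± 0.65 log2 units in wildtype and 11.75 ± 0.06 in heterozygous mice (SD over the 4 mice of each genotype), which differ by 0.29 (SE 0.35). The dimmer probe (34255967 to 34256026) differed by 0.88 (SE 0.28), higher in the mice labelled heterozygous. The labels do not place these probes relative to the trap, so they do not check the genotypes, which are used as labelled throughout.

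The promoters of these genes show what the set has in common besides the biochemistry, independent of the arrays. SREBPs bind a sterol regulatory element (SRE) and act together with NF-Y, which binds CCAAT boxes, and with Sp1, which binds GC boxes. The 250 bases before each listed transcription start were taken from RefSeq (GRCm38.p6) and searched on both strands for the SRE core TCACNCCAC, the E-box CACGTG, the NF-Y box CCAAT and the Sp1 box GGGCGG. A gene with several listed starts was counted once if any of them had a match. The table held 16 of the 19 synthesis genes and 10 of the 13 others. It did not hold Fdps, Fdft1, Sqle, Stard4, Npc1 or Abcg1.

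The NF-Y box was found in 15 of the 16 synthesis promoters (93.8%), against 37.5% of the 27025 genes in the table and 39.5% of the 8848 genes in it that were also read on the arrays. Of the other members, 7 of 10 had it. Within the last 100 bases before the start, 14 of the 16 synthesis genes (87.5%) had an NF-Y box, against 4 of the 10 other members, 21.6% of all genes and 25% of the genes read. At least 2 NF-Y boxes stood in 10 of the 16 (62.5%), against 11.5% of all genes and 14.1% of those read. Mvk, which encodes mevalonate kinase, had the most, with 5. Acat2 was the 1 synthesis gene with none. The Sp1 box was found in 14 of 16 synthesis promoters (87.5%) and 8 of 10 others, against 35.4% of all genes and 60% of those read. The E-box was found in 3 of 16 and 3 of 10, against 6.86% of all genes and 9.49% of those read. The strict SRE core was found in Hmgcs1 alone of the 26 members, against 1.22% of all genes and 1.32% of those read. These matches describe the letters of the promoters and not binding, and SREBP sites that differ from these letters were not searched for.

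Below are 6 of these promoter windows, 5′ to 3′ on the gene's own strand, with matches to the 4 motifs in capitals. Hmgcs1 (chr13:119690101-119690350, plus strand), which encodes the cytosolic HMG-CoA synthase, is shown because it holds the SRE core, TCACCCCAC, between NF-Y boxes.
Hmgcs1: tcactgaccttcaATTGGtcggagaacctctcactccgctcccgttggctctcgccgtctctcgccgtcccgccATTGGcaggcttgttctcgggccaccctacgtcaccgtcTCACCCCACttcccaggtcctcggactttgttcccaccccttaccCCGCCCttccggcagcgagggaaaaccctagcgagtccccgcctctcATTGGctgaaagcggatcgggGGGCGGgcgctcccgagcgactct
Lss, Sc5d and Acat2 are shown as synthesis genes whose values in the 2 genotypes did not overlap. Idi1 is shown with them, but its values were apart only with flagged spots kept, as all 4 heterozygous spots were flagged. Idi1 (chr13:8885356-8885605, plus strand) has NF-Y boxes close to the start.
Idi1: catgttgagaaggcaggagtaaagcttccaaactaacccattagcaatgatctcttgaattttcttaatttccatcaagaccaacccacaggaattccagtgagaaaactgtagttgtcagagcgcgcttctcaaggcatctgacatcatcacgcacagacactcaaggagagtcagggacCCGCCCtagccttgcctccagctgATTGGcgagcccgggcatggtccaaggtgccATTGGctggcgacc
Lss (chr10:76531355-76531604, plus strand) has 1 NF-Y box and 2 Sp1 boxes.
Lss: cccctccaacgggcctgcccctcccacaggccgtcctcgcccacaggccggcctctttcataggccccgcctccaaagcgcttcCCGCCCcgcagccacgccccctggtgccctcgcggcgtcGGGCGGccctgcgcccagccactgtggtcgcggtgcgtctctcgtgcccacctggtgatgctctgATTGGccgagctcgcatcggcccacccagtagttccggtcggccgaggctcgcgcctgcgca
Sc5d (chr9:42264301-42264550, minus strand) has an E-box and, close to the start, an NF-Y box.
Sc5d: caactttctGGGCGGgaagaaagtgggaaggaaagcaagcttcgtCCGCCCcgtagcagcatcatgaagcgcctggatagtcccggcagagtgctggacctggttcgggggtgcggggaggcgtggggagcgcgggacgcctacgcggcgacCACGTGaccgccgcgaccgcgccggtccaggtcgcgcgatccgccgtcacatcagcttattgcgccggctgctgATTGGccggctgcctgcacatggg
Acat2 (chr17:12960726-12960975, minus strand) has a single Sp1 box.
Acat2: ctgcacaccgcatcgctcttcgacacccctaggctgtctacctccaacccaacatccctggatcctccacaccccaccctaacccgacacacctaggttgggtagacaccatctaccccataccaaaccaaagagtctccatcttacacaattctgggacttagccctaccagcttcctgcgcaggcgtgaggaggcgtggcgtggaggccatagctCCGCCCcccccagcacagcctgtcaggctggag
Insig1 (chr5:28071162-28071411, plus strand), a feedback regulator, is shown beside them for its E-box and its 3 Sp1 boxes.
Insig1: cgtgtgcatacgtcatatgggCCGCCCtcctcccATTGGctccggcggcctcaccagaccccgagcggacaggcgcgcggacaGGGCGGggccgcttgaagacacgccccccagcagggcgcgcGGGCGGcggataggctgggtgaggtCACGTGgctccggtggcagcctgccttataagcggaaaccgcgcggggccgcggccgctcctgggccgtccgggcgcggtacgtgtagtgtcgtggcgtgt

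**Figure D1:**
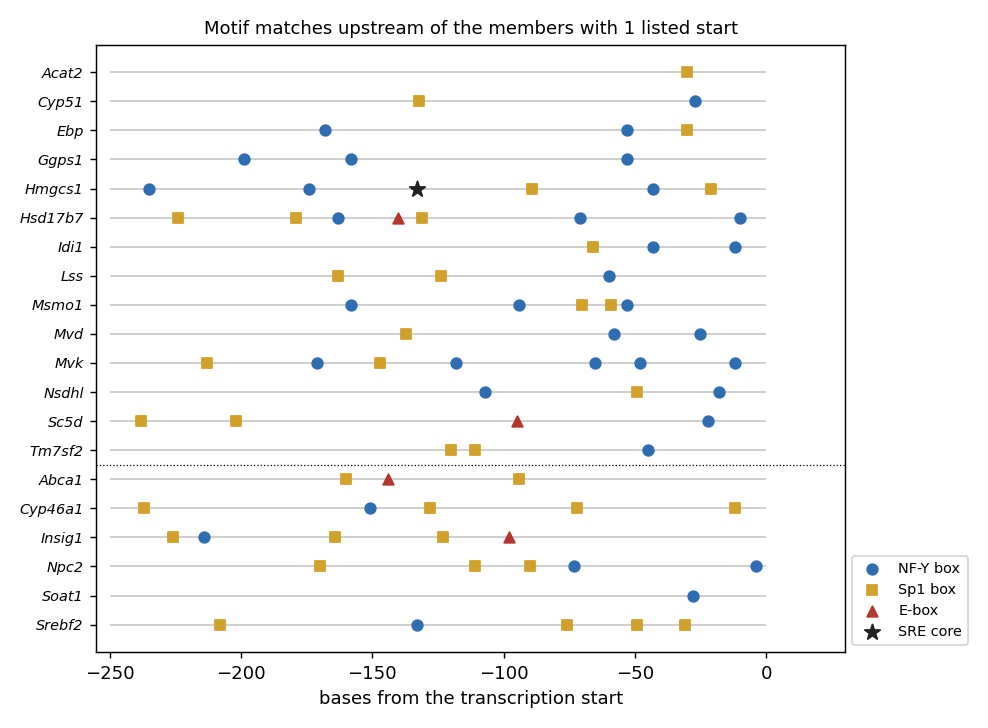
Positions of motif matches in the 250 bases before the start of the 14 synthesis genes (above the dotted line) and 6 other members that have 1 listed start. The horizontal axis is the distance from the transcription start in bases, each symbol is 1 match, and NF-Y boxes lie within the last 100 bases of every synthesis gene plotted except Acat2.

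The genotype difference was estimated for all 18399 probes that stood above background and had a value in every mouse. No probe passed an adjusted p of 0.05 (limma, Benjamini-Hochberg; 0% of 18399), the lowest adjusted p was 0.435, and 1468 probes had an unadjusted p under 0.05. Of the 14996 genes read, 4.28% were lower in the mice labelled heterozygous at an unadjusted p under 0.05 and 3.77% were higher. In 9.2% of genes all 4 heterozygous mice were below all 4 wildtype mice, and in 7.72% all 4 were above. Over all genes the median difference was -0.03 log2 units, and 52.8% were lower. These shares are the background for the members.

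Of the 16 synthesis enzymes read, 12 were lower in the mice labelled heterozygous and 4 were higher, with a median difference of -0.35 log2 units. In 5 of the 16 the groups did not overlap and the heterozygous mice were lower, and in none were they higher without overlap. The unadjusted p was under 0.05 for 3, Sqle, Sc5d and Acat2, all lower. Since the set was proposed with this contrast known, the counts are given beside the background and nothing is read from them. Each gene was also set to its mean over the 8 mice, and the median of the 16 enzymes then read 0.32, 0.18, 0.14 and 0.24 in wildtype replicates 1 to 4 and -0.13, -0.13, -0.19 and 0.02 in heterozygous replicates 1 to 4. The lowest wildtype mouse was above the highest heterozygous mouse. The same median over all genes read was also apart, by less, at 0.02 to 0.03 in wildtype and -0.02 to 0 in heterozygous mice. Of the 10 regulation, transport and turnover members read, 6 were lower and 4 higher, with a median of -0.16, none had an unadjusted p under 0.05, and the groups overlapped for every one. From the processed signals without centring, all 26 members were lower, as were 90.4% of all genes read.

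**Figure D2:**
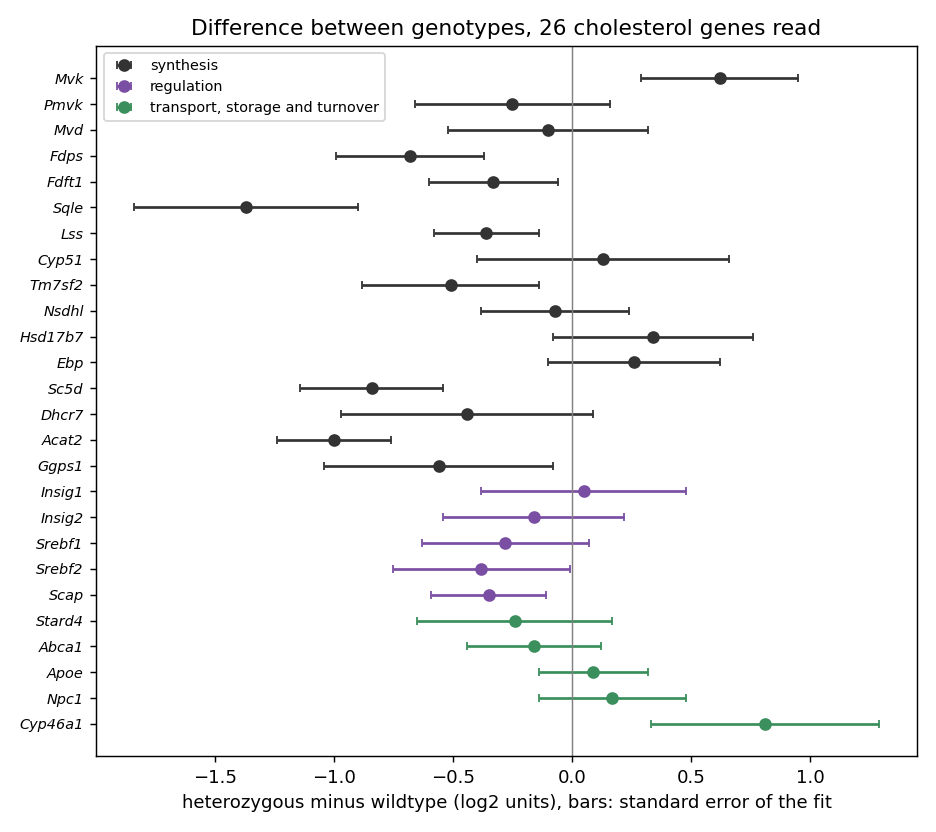
Log2 difference between the mice labelled heterozygous and the wildtype mice (horizontal axis) for the 26 cholesterol genes read, with the standard error of the fit as bars and colour for the role. Sqle, Acat2 and Sc5d lie farthest to the left at -1.37, -1.0 and -0.84, and Cyp46a1 lies farthest to the right at 0.81.

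The pathway opens with Acat2, the cytosolic thiolase that joins acetyl-CoA units to acetoacetyl-CoA. Its probe (chromosome 17, 13136482 to 13136541, mm9) read 9.08, 9.27, 9.38 and 9.39 log2 units in the wildtype mice and 8.15, 8.30, 8.20 and 8.48 in those labelled heterozygous. All heterozygous mice lay below all wildtype mice, and the mice of a genotype differed little. The means were 9.28 ± 0.14 and 8.28 ± 0.15 (SD, n = 4 each). They differ by -1.0 (SE 0.24), which puts the heterozygous mice at 50% of the wildtype level. Acat2 lies on the chromosome of Brd2, 21.1 Mb from its nearest probe. With a spatial trend removed from each array the difference was -0.58.

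Hmgcs1 makes HMG-CoA from acetoacetyl-CoA. Its bright probe was flagged in all 4 wildtype and 2 heterozygous mice and was not read. With flagged spots kept, it read 13.21, 12.29, 12.83 and 13.06 in wildtype and 12.84, 12.62, 12.31 and 12.21 in heterozygous mice, and the groups overlapped (difference -0.35). Its second probe was well above background in 2 of the 8 mice. Mvk, Pmvk and Mvd phosphorylate mevalonate and decarboxylate it to isopentenyl diphosphate. Mvk read 9.20, 9.28, 8.15 and 8.52 in wildtype and 9.14, 9.30, 9.56 and 9.65 in heterozygous mice. Only the wildtype array of replicates 3 and 4 stood apart, so that the difference of 0.62 (SE 0.33) was 0.17 without that array and 1.08 without the other. Its direction also depended on the signal used: it was -0.67 from the scanner's processed signals and -0.14 once these were centred on each sample's median. The brighter Mvk probe, flagged in 2 mice of each genotype, showed the same split, with 11.38 and 11.04 against 9.66 and 9.87 in wildtype once flagged spots were kept. Pmvk differed by -0.25 (SE 0.41) and Mvd by -0.10 (SE 0.42).

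Idi1, the isomerase that turns isopentenyl diphosphate into the dimethylallyl form, was flagged in all 4 heterozygous mice and in no wildtype mouse. The wildtype mice read 11.39, 10.61, 11.17 and 11.24, or 11.10 ± 0.34 (SD, n = 4). With the flagged spots kept, the heterozygous mice read 9.95, 9.02, 10.26 and 10.19, or 9.85 ± 0.57. These values lay below every wildtype mouse, a difference of -1.25 (SE 0.54) that rests on flagged spots.

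Farnesyl diphosphate synthase (Fdps) builds the isoprenoid chain from which both sterols and protein prenyl groups are made. It read 12.59, 12.22, 12.28 and 12.42 in wildtype and 11.97, 11.99, 11.46 and 11.36 in heterozygous mice. The groups did not overlap, and heterozygous replicates 3 and 4 lay below replicates 1 and 2 (array difference -0.57). The means were 12.38 ± 0.16 and 11.70 ± 0.33 (SD, n = 4 each). The difference of -0.68 (SE 0.31) was -0.40 without the array of heterozygous replicates 3 and 4. Ggps1, which lengthens the chain to geranylgeranyl diphosphate, had 3 probes, at -0.56, -0.54 and -0.32. In its read probe, replicates 3 and 4 lay above replicates 1 and 2 by 1.00 in wildtype and by 1.04 in heterozygous mice, more than the genotypes differed. Fdft1, squalene synthase, differed by -0.33 (SE 0.27) with overlapping groups.

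Sqle encodes squalene epoxidase, a rate-limiting step of the sterol branch. It read 11.60, 10.65, 10.96 and 11.11 in wildtype and 9.84, 9.35, 9.88 and 9.77 in heterozygous mice. The highest heterozygous mouse lay well below the lowest wildtype mouse, and wildtype replicate 1 was the highest of all. The means were 11.08 ± 0.39 and 9.71 ± 0.24 (SD, n = 4 each). They differ by -1.37 (SE 0.47), which puts the heterozygous mice at 38.7% of the wildtype level. This was the lowest difference of the members read, and -1.18 without wildtype replicate 1. Lss, the cyclase that closes the rings of lanosterol, read 8.52, 8.59, 8.55 and 8.59 in wildtype and 8.25, 8.36, 8.12 and 8.09 in heterozygous mice. Its groups did not overlap at a difference of -0.36 (SE 0.22), and with a spatial trend removed from each array the difference was 0.08.

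Between lanosterol and cholesterol, 4 of the 7 enzymes read were lower and 3 higher, with a median of -0.07. Sc5d, the sterol desaturase near the end of the pathway, read 11.21, 10.80, 10.89 and 11.01 in wildtype and 10.28, 10.09, 10.05 and 10.12 in heterozygous mice. The groups did not overlap, at 10.98 ± 0.18 and 10.13 ± 0.10 (SD, n = 4 each). These SDs are over mice that share arrays. The fit, which has the array as a block, gave a difference of -0.84 (SE 0.30), or 55.9% of the wildtype level. It was -0.48 with a spatial trend removed and -0.41 from the scanner's processed signals centred on each sample's median. Tm7sf2, a sterol reductase, differed by -0.51 (SE 0.37) and -0.53 in its 2 probes, and the groups overlapped in both. In the second probe, the heterozygous arrays differed by 1.33.

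Dhcr7, the reductase of the last step, read 10.18, 9.99, 8.17 and 8.54 in wildtype and 8.59, 8.87, 8.57 and 9.09 in heterozygous mice. The 2 wildtype arrays stood apart (replicates 3 and 4 minus replicates 1 and 2, -1.73), and all heterozygous mice lay between them. The difference of -0.44 (SE 0.53) was -1.31 against wildtype replicates 1 and 2 alone and 0.42 against wildtype replicates 3 and 4 alone. Hsd17b7 differed by 0.34 in its read probe, with a wildtype array difference of -1.04, and by -0.14 in a dimmer probe. Ebp, the sterol isomerase, differed by 0.26, with heterozygous arrays 1.05 apart. Cyp51 differed by 0.13 (SE 0.53) and Nsdhl by -0.07 (SE 0.31), and the groups of both overlapped. Msmo1 (named Sc4mol in the files) was flagged in 3 heterozygous mice and differed by -0.41 with flagged spots kept, when its groups overlapped.

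**Figure D3:**
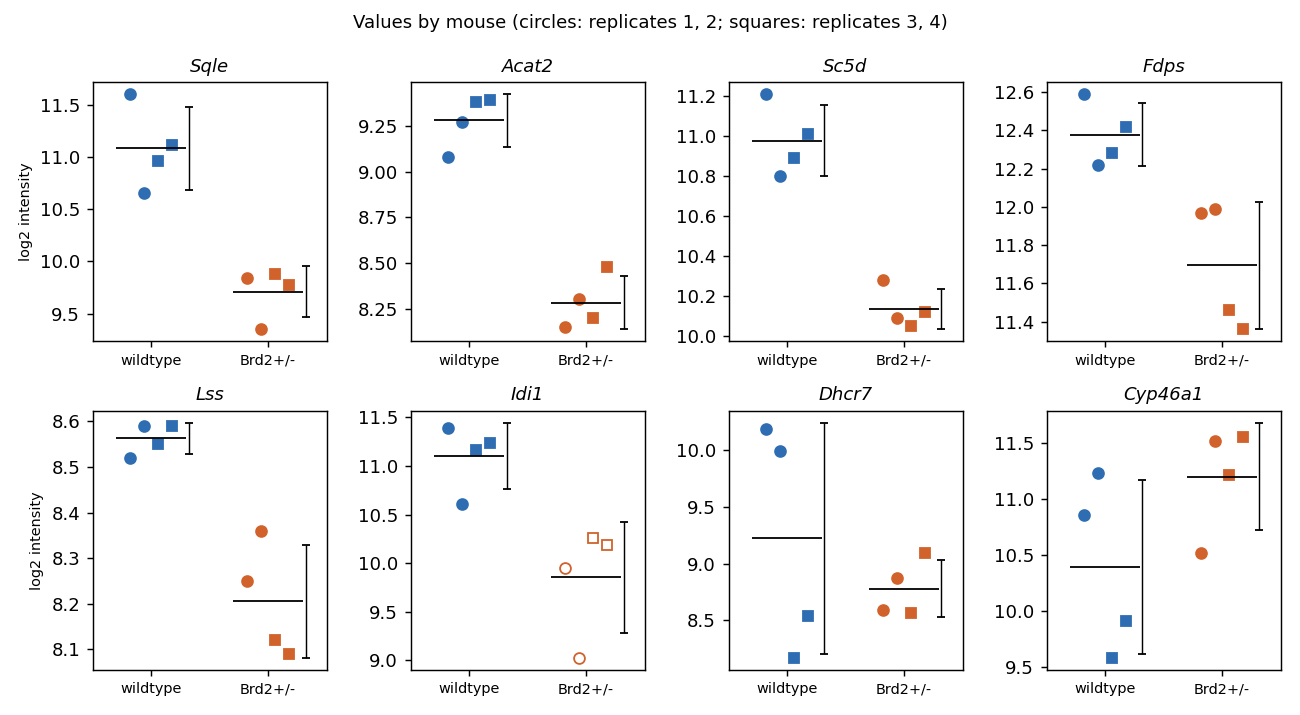
Log2 intensity (vertical axis) of 8 members in each mouse, with the genotype mean as a line and the SD of 4 mice as a bar. Circles are replicates 1 and 2 and squares replicates 3 and 4, which shared an array, and open symbols are spots with an outlier flag. The groups are apart for Sqle, Acat2, Sc5d, Fdps and Lss and, with its flagged spots kept, for Idi1. Dhcr7 and Cyp46a1 split by array within the wildtype.

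The 5 regulators read between -0.38 and 0.05, 4 of them lower, with a median of -0.28. Srebf2, the transcription factor that drives these enzymes, read 8.71, 8.77, 9.20 and 9.41 in wildtype and 8.29, 8.99, 8.60 and 8.68 in heterozygous mice. The groups overlapped, with a difference of -0.38 (SE 0.37), and its second probe differed by 0.15 in the other direction. Scap, the sterol-sensing escort of SREBP, read 13.34, 13.27, 13.30 and 13.14 in wildtype and 12.85, 12.59, 13.17 and 13.03 in heterozygous mice. Heterozygous replicate 3 alone crossed into the wildtype range, and the difference was -0.35 (SE 0.24). It was 0.11 with a spatial trend removed and -0.08 from the centred processed signals. Srebf1, which mainly drives fatty acid synthesis, differed by -0.28 (SE 0.35).

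Insig1 and Insig2 retain SCAP in the endoplasmic reticulum, and Insig1 is itself a target of SREBP. Insig1 read 7.45, 7.23, 7.56 and 8.18 in wildtype and 7.17, 7.43, 7.83 and 8.19 in heterozygous mice, a difference of 0.05 (SE 0.43). The groups covered the same range. Insig2 differed by -0.16 (SE 0.38) in its read probe, in which the array difference was 0.91 in wildtype and -0.90 in heterozygous mice. Its other probe, flagged in 2 heterozygous mice, read 10.27, 10.02, 10.46 and 10.31 against 9.6, 9.69, 8.96 and 8.99 with flagged spots kept. There the groups did not overlap and the difference was -0.96, so the probes of Insig2 disagree in size.

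Among the genes of transport, storage and turnover, Cyp46a1 had the largest difference. It encodes the neuronal cholesterol 24-hydroxylase, the main route by which cholesterol leaves the brain. It read 10.86, 11.23, 9.58 and 9.91 in wildtype and 10.52, 11.52, 11.21 and 11.55 in heterozygous mice. Wildtype replicates 3 and 4 lay below every other mouse, and replicates 1 and 2 lay within the heterozygous range. The difference was 0.81 (SE 0.48). It became 0.16 when that array was left out and 1.45 when the other wildtype array was. From the scanner's processed signals it was -0.52, and 0.01 once these were centred on each sample's median, so its direction depends on the signal used. Apoe, which encodes the main apolipoprotein of the brain, was bright in every mouse. It read 16.52 to 17.14 in wildtype and 16.70 to 17.15 in heterozygous mice, with a difference of 0.09 (SE 0.23).

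Abca1, which exports cholesterol to apolipoproteins, differed by -0.16 (SE 0.28). Stard4, a soluble sterol carrier, differed by -0.24 (SE 0.41), and Npc1, which moves cholesterol out of lysosomes, by 0.17 (SE 0.31). Npc2, its lysosomal partner, was flagged in 2 wildtype mice and differed by 0.05 with flagged spots kept. Abcg1, a second exporter, was flagged in 1 heterozygous mouse. It read 11.28, 11.03, 11.40 and 10.89 in wildtype and 11.83, 11.78 and 11.34 in the unflagged heterozygous mice, and differed by 0.47 with the flagged spot (11.55) kept. It lies 3.00 Mb from the nearest Brd2 probe on chromosome 17. Soat1, which esterifies cholesterol for storage, was not well above background in any of the 8 mice.

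The spread between arrays of 1 genotype was set beside the difference between genotypes for each of the 26 genes read. Its median size was 0.48 log2 units between the wildtype arrays and 0.20 between the heterozygous arrays, against 0.34 between genotypes. In 19 of the 26 genes at least 1 array difference within a genotype was larger than the difference between genotypes. In the other 7, Fdps, Sqle, Lss, Tm7sf2, Sc5d, Acat2 and Stard4, both were smaller. That is 26.9% of the members read, against 22.4% of the 14996 genes read. Of the 7, 6 are synthesis enzymes, which make up 16 of the 26 genes read. The members were chosen with this contrast known, and nothing is read from these counts.

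**Figure D4:**
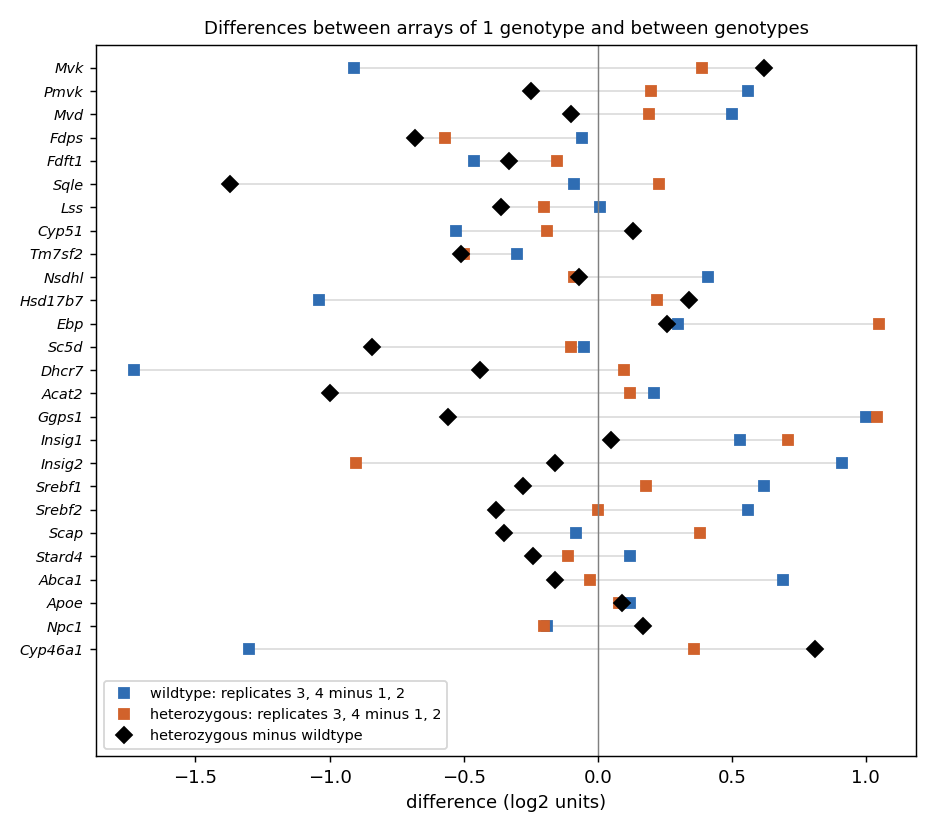
For each of the 26 genes read, the difference in log2 units (horizontal axis) between the 2 arrays of wildtype mice and of heterozygous mice (squares, replicates 3 and 4 minus replicates 1 and 2) and between the genotypes (diamonds). For Sqle, Acat2 and Sc5d the diamond lies far outside both squares, and for Dhcr7, Cyp46a1, Ebp, Ggps1 and Insig2 a square lies farther from 0 than the diamond.

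Among the wildtype mice, replicate 1 read highest in 8 of the 16 synthesis enzymes and replicate 4 in 6. Without wildtype replicate 1 the median of the synthesis enzymes was -0.26 and 10 of 16 were lower. The same mouse stood apart in the markers of cortical excitatory neurons, of which 6 were read: their centred median was 2.18 in wildtype replicate 1, -0.22 to 0.06 in the other wildtype mice and -0.81 to 0.22 in the heterozygous mice. All 6 were lower in the mice labelled heterozygous, with a median of -0.94, and none at an unadjusted p under 0.05. Their part in the values of the cholesterol genes was not tested.

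The other cell types that make or use cholesterol gave smaller medians. Astrocyte markers (5 of 11 lower) had a median difference of 0.09, oligodendrocyte and myelin markers (2 of 9 lower) 0.16, oligodendrocyte precursor markers (3 of 4 lower) -0.08 and microglial markers (4 of 9 lower) 0.07. Endothelial markers (2 of 7 lower) had a median of 0.38, with centred medians of -0.26 to -0.11 in wildtype and 0.10 to 0.29 in heterozygous mice. Cldn5, a tight junction protein of that list, went the other way at -1.06 (SE 0.31). Striatal projection neuron markers (3 of 10 lower) had a median of 0.40, and 2 of them did not overlap, both higher. Of all genes read, 7.72% were higher without overlap. In the centred median of these striatal markers, wildtype replicate 4 stood apart, below every other mouse. The other wildtype mice read -0.05 to 0.31 and the heterozygous mice 0.01 to 0.5, and these ranges overlapped. Choroid plexus and ependyma markers (4 of 8 lower) had a median of -0.05 and differed most between mice, with Ttr, the choroid plexus transport protein, from 6.64 to 17.35. Atrial markers (3 of 4 lower) had a median of -0.14. The summed signal of the astrocyte markers was 16.70 to 17.20 log2 units in wildtype and 16.72 to 17.01 in heterozygous mice, and that of the oligodendrocyte and myelin markers 15.26 to 16.11 and 15.41 to 16.06. In bulk RNA, fewer cells of a type and less RNA per cell cannot be told apart.

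Pathways next to cholesterol synthesis were read from lists chosen by function. Of the 10 genes of SREBP processing and degradation read, 7 were lower, with a median of -0.17. Sec23a, part of the coat of the vesicles that carry SCAP and SREBP, read 10.20, 10.13, 9.90 and 9.83 in wildtype and 9.23, 9.11, 9.44 and 9.77 in heterozygous mice, a difference of -0.63 (SE 0.31) without overlap. In the other direction, Rnf139 differed by 0.38 and Ubxn8 by 0.24, and both overlapped.

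Fatty acid synthesis, the branch driven by Srebf1, had 7 of 11 genes lower and a median of -0.14. The elongase Elovl6 differed by -0.82 (SE 0.41), Lpin1 by -0.52 (SE 0.28), the desaturase Scd1 by 0.61 (SE 0.89) and Fads1 by 0.27 (SE 0.38). Only Lpin1 of these 4 had groups that did not overlap. Isoprenoid use, the branch that leaves the pathway at Fdps, had all 8 genes read lower and a median of -0.19. Icmt, the prenylcysteine methyltransferase, differed by -0.45 (SE 0.25) without overlap. Fnta, a farnesyltransferase subunit, differed by -2.13 (SE 1.19), and wildtype replicates 3 and 4 read 11.91 and 11.92 while every other mouse read 6.91 to 7.40.

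Genes of the liver X receptors and oxysterols, which respond to a surplus of sterol, had 3 of 7 lower and a median of 0.02. Cyp7b1 differed by 0.36, Nr1h2 by 0.26, Nr1h3 by -0.28 and Ch25h by -0.10, and the groups of all 4 overlapped. Sterol carriers and lipoprotein receptors had 10 of 16 lower and a median of -0.14. Lrp8, the apolipoprotein E receptor 2 of neurons, read 9.48, 9.39, 9.35 and 9.85 in wildtype and 8.36, 8.39, 8.66 and 8.58 in heterozygous mice, a difference of -1.02 (SE 0.33). Abcg4, a sterol exporter, differed by -0.41 (SE 0.26), lower in all 4 heterozygous mice. Abca3 read 10.76, 10.62, 11.56 and 11.53 in wildtype and 12.43, 12.53, 12.53 and 12.59 in heterozygous mice, a difference of 1.40 (SE 0.31). Gramd1a, a sterol transfer protein at membrane contacts, differed by 1.12 (SE 0.35). Groups did not overlap for any of these 4 genes, which were named for their low unadjusted p. Over all genes read, 9.2% were lower and 7.72% higher without overlap. Across the 5 lists none of the 52 genes read passed an adjusted p of 0.05 (limma). An unadjusted p under 0.05 was found for 4, of which 2 were lower and 2 higher. Of all genes read, 4.28% were lower and 3.77% higher at that level, and nothing is read from the 4.

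**Figure D5:**
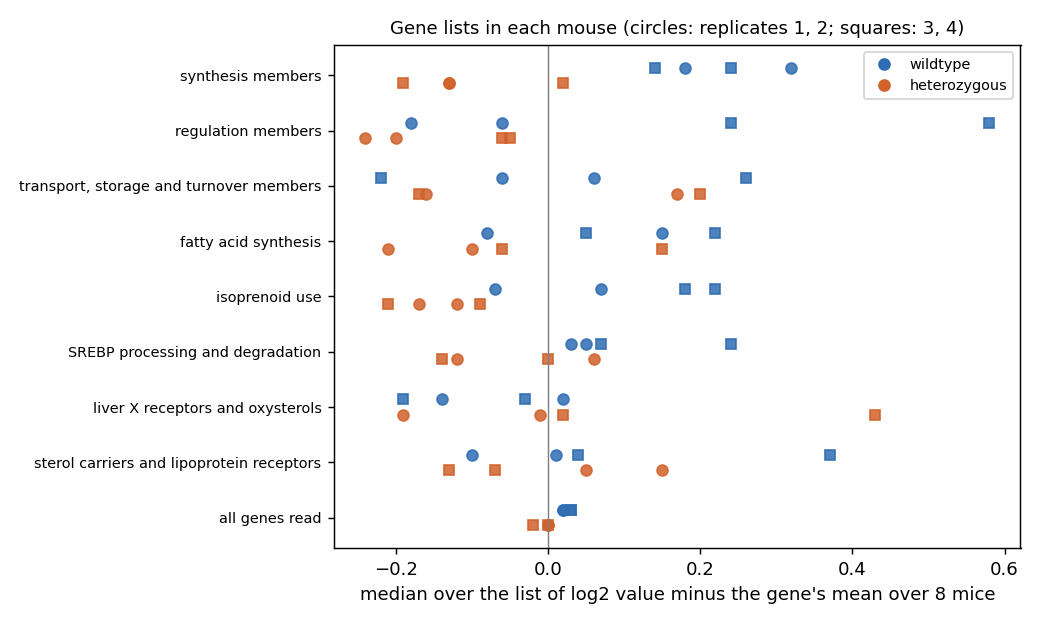
For each gene list (rows), the median over its genes of the log2 value minus the gene's mean over the 8 mice (horizontal axis), 1 symbol per mouse, with circles for replicates 1 and 2 and squares for replicates 3 and 4. The synthesis members separate the genotypes (0.14 to 0.32 against -0.19 to 0.02), and the isoprenoid genes also do (-0.07 to 0.22 against -0.21 to -0.09). The row of all genes read is apart too, by less (0.02 to 0.03 against -0.02 to 0), and the other lists plotted overlap.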

How the data were processed

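RNA of 8 mice (4 wildtype, 4 heterozygous) was read on 4 two-colour arrays. Per the file headers, Agilent Feature Extraction 11.0.1.1 gave the raw spot and background intensity of each channel and its processed intensity. The authors also deposited a table of 1 ratio per spot and sample, on a linear scale: each spot's median signal less its median background, in the sample's own channel, over the median of the column, which makes every column's median 1. No label states this. It was found by setting the table against the scanner values (100% equal within a relative tolerance of 1e-04).

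From the deposited intensities, log2 values were made with limma 3.58.1 in R 4.3.3: normexp (offset 50), loess within and Aquantile between arrays. The offset draws the differences of dim probes towards 0. Controls were left out, as were spots with outlier flags (2.55% to 4.53% of a sample's spots), and spots of a probe were averaged. Of 39429 probes, 22288 were well above background in at least 4 of 8 samples, and the 18399 of these with all 8 values were fitted (lmFit, eBayes) with a dye covariate and a random array block (correlation 0.81), as the design text compares samples of the same dye. A gene was read by its brightest such probe. Coordinates of probes are mm9, per the file headers, and 42 of the 45 member probes had an accession that RefSeq lists for the same gene.

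The members and all gene lists were chosen with earlier results of these data known. The text names the 32 members, Brd2, the 2 genes per direction with the lowest unadjusted p in each related list, and some of the highest and lowest markers of each cell type list. The values of 1 gene that this rule takes are not reported here. The samples are separate mice, so the spread includes that between mice and between arrays. The fit was tested on simulated data. Alternatives in background correction, normalization, source of the values, filters, array and replicate blocks, probe choice and left-out mice or arrays are given in the closing section.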

Additional observations from a re-analysis of the deposited data

Results flagged for a closer look

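Of 56 groups of 4 values examined (26 genes and 2 list medians in each genotype), 1 held a mouse far from the others, where chance flags about 1 in 20. Npc1, the lysosomal cholesterol exporter, read 9.27 log2 units in heterozygous replicate 3 and 9.66 to 9.72 in the other mice labelled heterozygous. That mouse also had the lowest share of spots well above background, 42.4%, and the part of this in the Npc1 value was not tested.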

How the results depend on the processing

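No probe was called with the array as a random block, and 1468 had an unadjusted p under 0.05. Without an array block 529 of 18399 probes were called, among them Acat2, Sc5d and Sqle. With the replicate number as a block and no array block 674 of 18399 were called, the same 3 members among them. With both blocks 0 were called (2088 at an unadjusted p under 0.05). The fits without an array block treat mice on 1 array as independent, although the array correlation was 0.81 in the main fit. Nothing is read from their calls. Same-numbered mice share a dye, and their deviations from the genotype means correlated at 0.04, 0.26, 0.16 and 0.13 in replicates 1 to 4, and at -0.04, 0.18, 0.08 and 0.06 with the dye effect removed. Not every pair exceeded 0.1 in either, and no label ties the numbers to shared animals or batches, so the mice were treated as sharing only a number. The deposited value table gave 1 call. Leaving out 1 mouse at a time gave 0 to 1 calls, and leaving out an array gave 22 (wildtype replicates 1 and 2), 14 (wildtype replicates 3 and 4) and 5 (heterozygous replicates 3 and 4), none of them a member. The median of the synthesis enzymes was below 0 under every alternative run. It was -0.76 from the processed signals, under which the median of all genes was -0.53 and 90.4% of genes were lower, and -0.23 when these were centred on each sample's median, an alternative chosen after seeing the data. It was -0.19 with a spatial trend removed, -0.26 with the array of heterozygous replicates 3 and 4 left out, and -0.38 to -0.26 with 1 mouse left out. The median of the other members was -0.52 from the processed signals, 0.01 when centred, 0.02 with a spatial trend removed, 0.0698 with the array of wildtype replicates 3 and 4 left out, and -0.19 to -0.10 with 1 mouse left out. Except where the alternative's own construction shows it, the cause was not tested. Of 777 member values under the alternatives, 55 moved by more than the spread between mice. In all alternatives 9 of the 26 members kept their sign: Fdps, Fdft1, Sqle, Tm7sf2, Sc5d, Acat2, Ggps1, Srebf2 and Stard4. Changing only the blocks, the dye covariate or the averaging over arrays, or fitting 1 probe per gene, cannot move a difference or median here. Those alternatives are among the 777 and say nothing about size or sign. Read alone, the second probe of Srebf2 differed by 0.15, in the other direction. The highest values of Ggps1 and Stard4 were -0.04 and -0.06. Sqle ranged from -1.76 to -1.02, Acat2 from -1.33 to -0.58 and Sc5d from -0.94 to -0.41. Signal over background limits Soat1, which was not well above it in any mouse.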
